A study of Mus musculus with 36 samples.

Results

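Transcripts of 10 proteins that the liver releases into the blood are described across the livers of mice with and without a mutation of the sterol-sensing receptor LXRalpha. The genes are Enho, Fgf21, Gdf15, Inhbe, Fetub, Ahsg, Igfbp1, Igfbp2, Lect2 and Hamp, 10 of the 49315 genes in the deposited table. They were chosen by gene name, with earlier results of these data known. Enho was selected on these data for its higher level in W/F livers. Its levels are therefore given as a description, and it was tested only within F/F mice, which did not enter that choice. All 10 passed the filter on low values, which asked for at least 1 TPM (transcript abundance per 1000000 transcripts) in at least 4 samples.

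The study measured polyA RNA in 36 livers of male mice aged 11 to 12 weeks, with 4 livers in each of 9 groups. CRISPR was used to make mice in which tryptophan 441 of LXRalpha is phenylalanine, a change not limited to hepatocytes, and the genotypes were homozygous control (W/W), heterozygous (W/F) and homozygous mutant (F/F). Each genotype was kept on normal chow, on a high fat, high cholesterol diet that promotes steatohepatitis (the MASH diet) for 4 weeks with vehicle, or on the same diet with the synthetic LXR agonist T0901317 at 10 mg per kg by daily gavage for the final 2 weeks. The chow mice were an independent cohort for which the labels record no gavage, so diet, gavage and cohort cannot be told apart in any comparison with chow. Below, a change with the diet stands for this comparison of vehicle livers with chow livers. The series text pairs LXRalpha with the symbol Nr1h2, whereas the usual symbol is Nr1h3. TPM of either gene cannot show the amino acid change, so the genotype labels were not checked by it. Group means of Nr1h3 were 86.8 to 108 TPM, with no call between a mutant genotype and W/W in TPM; after the rescaling described below Nr1h3 was lower on vehicle in W/F (-0.53, adjusted p = 3.7e-05) and F/F (-0.80, adjusted p = 3.62e-08) and on T0901317 in F/F (-0.38, adjusted p = 0.00224). The table held a single value for each gene and liver, and a p-value measures the spread between these livers.

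The liver acts as an endocrine organ through such proteins. Fgf21, Gdf15 and Inhbe are secreted factors that rise with nutritional or cellular stress, and the first 2 are known targets of the stress-response factor ATF4. Ahsg and Fetub (fetuin-A and fetuin-B) are abundant plasma glycoproteins of the cystatin superfamily, Igfbp1 and Igfbp2 carry insulin-like growth factors, Lect2 is a hepatocyte-secreted chemotactic protein, and Hamp encodes hepcidin, which removes the iron exporter ferroportin from cell surfaces. Enho encodes adropin, a peptide tied to lipid and glucose handling, whose liver transcript is known to fall with LXR agonists. LXR itself is a nuclear receptor that binds oxidised cholesterol derivatives and switches on genes of cholesterol efflux and lipid synthesis.

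The promoter sequences that bear on the results come from RefSeq windows on GRCm38.p6 that run from 250 bases before to 50 bases after each RefSeq start. For Inhbe and Hamp2 these starts lie inside the longer gene spans of the annotation given below, after its most upstream start. Windows matched 9 of the 10 genes, with 12 windows in all, and Enho had none in the table. Hepcidin is shown beside its paralog Hamp2, because T0901317 moved Hamp2 in W/W livers while Hamp did not pass the test. The aligned 120 bases before their RefSeq starts, on the minus strand of chromosome 7, were as follows, with a BMP-response element (GGCGCC) and a STAT element (TTCNNNGAA) in capitals where present.

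Hamp, chr7:30944033-30944152: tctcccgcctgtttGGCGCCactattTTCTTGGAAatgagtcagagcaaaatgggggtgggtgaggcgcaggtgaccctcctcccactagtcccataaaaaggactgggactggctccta

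Hamp2, chr7:30924182-30924301: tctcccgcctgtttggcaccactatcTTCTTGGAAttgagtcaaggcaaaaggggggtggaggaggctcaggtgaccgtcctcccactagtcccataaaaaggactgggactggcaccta

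The shown stretches matched at 109 of 120 bases, and the windows matched at 276 of 297 aligned bases (92.9%). Both hold TTCTTGGAA. The BMP element of Hamp carries the substitution G4A in Hamp2, counted from 1 at the first base of GGCGCC from Hamp to Hamp2. GGCGCC was found in 11.9% and TTCNNNGAA in 8.3% of all 32851 windows, on either strand.

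Fgf21 and Inhbe are shown because a composite ATF4-C/EBP element (TGATGNAAN) lies before each RefSeq start, in capitals below on the opposite strand, and Igfbp1 because its known insulin response region lies in the window. The core CAAAACA of that region was added to the search after the sequence was seen.

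Fgf21, chr7:45615491-45615640, minus strand: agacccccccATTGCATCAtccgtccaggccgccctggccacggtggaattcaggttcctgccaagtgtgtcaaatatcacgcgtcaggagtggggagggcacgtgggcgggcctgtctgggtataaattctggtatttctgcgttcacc

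Inhbe, chr10:127351849-127352038, minus strand: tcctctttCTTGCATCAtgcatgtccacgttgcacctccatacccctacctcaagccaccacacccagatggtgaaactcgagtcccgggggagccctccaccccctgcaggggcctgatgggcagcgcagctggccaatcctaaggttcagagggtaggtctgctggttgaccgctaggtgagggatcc

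Igfbp1, chr11:7197667-7197786, plus strand: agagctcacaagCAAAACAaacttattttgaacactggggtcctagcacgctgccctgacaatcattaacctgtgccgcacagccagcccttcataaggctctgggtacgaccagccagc

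The ATF4-C/EBP element was in 3.95% of all windows and in those of these 2 members only among the 9 members searched, and CAAAACA was in 6.28%. An LXR element of the DR4 type (AGGTCA repeated after 4 bases) and a PPAR element of the DR1 type (AGGTCA repeated after 1 base) were in none of the members' windows, and in 0.0152% and 0.0396% of all windows. A looser DR4 (GGTNA repeated after 5 bases), found in 0.718% of windows, was in 1 window of Gdf15. The FoxO element TGTTTAC, in 3.65% of windows, was in the second window of Fetub, which also held GGCGCC after its start. These matches describe letters only, since no binding was measured.

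The depth recovered from the steps of the TPM values was 18.07 to 35.82 M reads per library (M, 1000000), with a median of 23.9 M. The libraries differed in composition with genotype and treatment: the 100 most abundant genes held 54.3% to 59.1% of the TPM in W/W livers on vehicle and 41.6% to 44.5% in F/F livers on vehicle. The median gene lay 0.70 higher in F/F than in W/W on vehicle on the log2(TPM + 1) scale, 0.52 higher in W/F than in W/W on vehicle, and 0.49 lower with T0901317 in W/F. Most results below carry a second value, called rescaled, in which every library was divided by its median-of-ratios factor. Markers of other cell types moved with the same groups. The summed TPM of 10 macrophage markers was 184.0 to 325.8 in W/W and 3439.3 to 4417.3 in F/F livers on vehicle, that of 7 bile duct markers 54.7 to 62.5 and 2927.7 to 3571.7, that of 10 stellate and fibroblast markers 104.5 to 172.0 and 1136.3 to 1388.3, and that of 9 lymphocyte and neutrophil markers 5.3 to 13 and 129.4 to 358.3. The 10 hepatocyte markers summed to 98768 to 124797 in W/W and to 50268 to 53824 in F/F livers on vehicle, and 7 endothelial markers to 97.3 to 106.9 and 103.8 to 152.0. Lyz2 was the largest part of the macrophage sum in both genotypes (mean 91.3 TPM in W/W and 3228 TPM in F/F), and most of it only in F/F. The Kupffer cell markers Clec4f (72.3 and 0.354 TPM) and Vsig4 (23.9 and 1.13 TPM) were lower in F/F. Most of the hepatocyte sum was Alb (49754 and 19352 TPM) and Apoa2 (25324 and 7870 TPM), while Trf was higher in F/F (2192 and 5810 TPM) and Tat (648 and 663 TPM), Hnf4a (309 and 291 TPM) and Fgb (2417 and 2253 TPM) were about level. Most of the lymphocyte and neutrophil sum in F/F was S100a8 (1.40 and 80.8 TPM) and S100a9 (2.26 and 147 TPM). The lymphocyte markers Cd3e (0.531 and 0.713 TPM), Ms4a1 (0.142 and 0.196 TPM) and Cd79a (1.54 and 2.41 TPM) differed little. Cd8a (0.262 and 1.81 TPM) and Nkg7 (1.75 and 4.42 TPM) were higher in F/F at low levels. Most of the bile duct sum was Spp1 (48.7 and 3174 TPM). The other bile duct markers, such as Krt19 (1.51 and 35.2 TPM) and Epcam (2.31 and 58.8 TPM), were also higher in F/F. The W/F livers on vehicle overlapped F/F in the macrophage sum (2863.3 to 3729.9) and lay between W/W and F/F without overlap in the bile duct (1168.8 to 1600.0, with a mean Spp1 of 1243 TPM), stellate and fibroblast (680.7 to 915.4) and hepatocyte sums (74076 to 83361). With T0901317 the macrophage sums were 156.5 to 1043.4 in W/F and 1313.6 to 2110.4 in F/F. On chow they were 123.6 to 177.7 in W/W, 87.3 to 164.1 in W/F and 508.5 to 799.6 in F/F. In bulk liver, fewer hepatocytes and less RNA per hepatocyte cannot be told apart, and the part of these cell-type differences in the results below was not tested. All 10 hepatocyte markers were above 1 TPM on average in every group. Among the W/F livers given T0901317, replicate 2 stood apart on the first principal component (1.00, against up to 54.45 in that group). Without it all 7 members called with T0901317 against vehicle in W/F were still called, and of the 3 called between W/F and W/W on T0901317 Igfbp1 was lost (-1.498, adjusted p = 0.101).

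Enho, on the minus strand of chromosome 4 (GRCm38, 4:41638144-41640324), had its lowest mean with T0901317 and its highest on chow in each genotype. On chow it was at 25.2, 51.5, 34.4 and 25.4 TPM in W/W livers, at 99.1, 88.1, 66.0 and 124 TPM in W/F and at 92.3, 109, 93.7 and 73.9 TPM in F/F. Every liver carrying the mutation was above every W/W liver, and W/F and F/F overlapped. On the MASH diet with vehicle it was at 6.99, 6.14, 4.29 and 9.83 TPM in W/W, at 23.5, 21.7, 21.3 and 21.9 TPM in W/F and at 42.3, 31.7, 32.7 and 35.8 TPM in F/F, so that the 3 genotypes did not overlap. With T0901317 it was at 0.459, 0, 0.706 and 0.655 TPM in W/W, which is 8, 0, 8 and 9 recovered reads, and at 7.88, 10.3, 13.2 and 15.7 TPM in W/F.

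**Figure D1:**
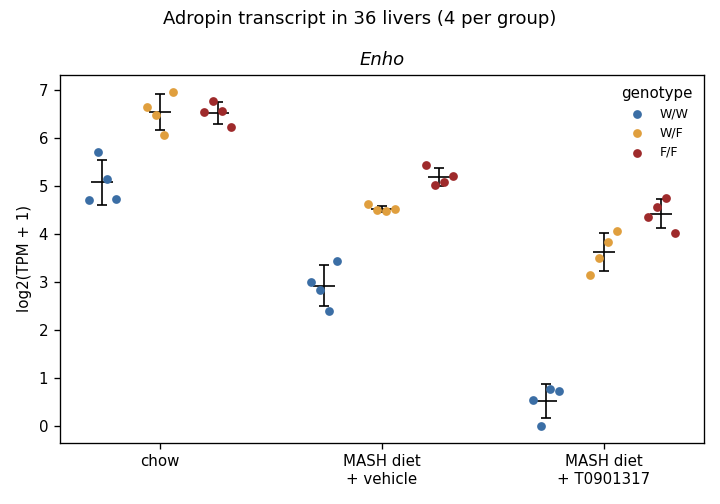
Enho, the adropin transcript, as log2(TPM + 1) in each of 36 livers (points), with the mean and SD of the 4 livers of each group (black bars); colours mark the genotypes. In W/W livers the mean falls from 34.1 TPM on chow to 6.81 with the MASH diet and 0.455 with T0901317, while the corresponding F/F means are 92.1, 35.6 and 20.8 TPM.

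In F/F livers with T0901317 Enho was at 19.6, 22.5, 25.8 and 15.3 TPM. Ordered by mean (± SD, n = 4), the groups ran from W/F chow (94.4 ± 24.3 TPM) and F/F chow (92.1 ± 14.2) to F/F vehicle (35.6 ± 4.79), W/W chow (34.1 ± 12.4), W/F vehicle (22.1 ± 0.990), F/F T0901317 (20.8 ± 4.45), W/F T0901317 (11.8 ± 3.40), W/W vehicle (6.81 ± 2.31) and W/W T0901317 (0.455 ± 0.322). Between neighbours in this order the livers did not overlap at 3 steps: from F/F chow to F/F vehicle, from W/W chow to W/F vehicle, and from W/W vehicle to W/W T0901317. The other neighbours overlapped. The mean in W/F was 2.77 times that in W/W on chow and 3.24 times on vehicle, values that describe the choice of the gene.

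Within F/F mice, which that choice did not use, Enho fell with the diet by 1.34 (SE 0.23, adjusted p = 1.04e-05) on the log2(TPM + 1) scale, and by 1.68 after rescaling (adjusted p = 1.43e-06). Adjusted p-values here and below are from limma with Benjamini-Hochberg adjustment over 16638 genes. With T0901317 it fell by 0.76 within F/F (SE 0.23, adjusted p = 0.0108), and this call was lost after rescaling (-0.50, adjusted p = 0.169) and with a pseudocount of 0.1 (adjusted p = 0.121). In both within-F/F comparisons the livers of the groups did not overlap.

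The genes whose levels followed Enho most closely over the 36 libraries, by Pearson r of log2(TPM + 1) among 11195 genes compared, were Pdia5 (0.917), Zhx3 (0.917), Vtn (0.914), Marf1 (0.904) and Gcnt4 (0.901). Pdia5 is a protein disulfide isomerase, Zhx3 a zinc-finger and homeobox protein, and Vtn the plasma protein vitronectin. The most opposite were Hsd17b11 (-0.957), a lipid droplet dehydrogenase, Ehhadh (-0.934), a peroxisomal enzyme of fatty acid oxidation, and Fabp2 (-0.911), a fatty acid binding protein. Libraries of a group share its diet, genotype and treatment, and after removal of group means r was 0.556 for Pdia5, 0.292 for Zhx3, 0.514 for Vtn, 0.382 for Marf1 and 0.219 for Gcnt4, and -0.44, -0.474 and -0.416 for Hsd17b11, Ehhadh and Fabp2, so these values describe mainly the order of the groups.

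Fgf21 (7:45613886-45615490, minus strand), a hormone that acts through Fgfr1 and beta-klotho, was higher in F/F than in W/W livers under all 3 treatments and rose with the MASH diet in all 3 genotypes. On chow the W/W livers held 1.08, 1.39, 1.30 and 0.442 TPM, the W/F livers 0.630, 3.47, 0.731 and 0.245 TPM and the F/F livers 5.19, 2.06, 8.93 and 7.53 TPM. On vehicle it was at 5.64, 7.13, 6.99 and 1.45 TPM in W/W, at 7.14, 9.65, 9.90 and 15.7 TPM in W/F and at 25.95, 25.3, 30.0 and 28.9 TPM in F/F. The F/F livers were above every W/W liver on both diets and above every W/F liver on vehicle. The F/F minus W/W difference was 1.65 on chow (SE 0.39, adjusted p = 0.000991), 2.32 on vehicle (adjusted p = 3.14e-06) and 1.65 on T0901317 (adjusted p = 0.000509), and each call stood after rescaling (1.39, 1.53 and 1.20).

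Fgf21 rose with the diet by 1.501 in W/W (adjusted p = 0.00935), 2.49 in W/F (1.97e-06) and 2.17 in F/F (2.15e-05). With T0901317 it was at 4.67, 4.66, 2.00 and 2.04 TPM in W/W, at 1.12, 1.86, 2.28 and 0.600 TPM in W/F and at 15.1, 12.8, 6.55 and 15.9 TPM in F/F. With the agonist it fell by 2.24 in W/F (SE 0.39, adjusted p = 9.73e-06; rescaled -1.79, adjusted p = 0.000365), with no overlap. In W/W the difference was -0.46 (adjusted p = 0.542), and the response in W/F differed from that in W/W by -1.78 (adjusted p = 0.00635), a call lost after rescaling (-1.25, adjusted p = 0.0705). In F/F it fell by 1.14 (adjusted p = 0.0237), a call lost after rescaling (-0.87, adjusted p = 0.139), with a pseudocount of 0.1 (adjusted p = 0.0982), and without F/F T0901317 replicate 3 (-0.88, adjusted p = 0.121), F/F vehicle replicate 3 (adjusted p = 0.0506) or replicate 4 (adjusted p = 0.05). W/F livers were higher than W/W on vehicle by 0.97 (adjusted p = 0.0265), which fell short after rescaling (0.40, adjusted p = 0.416), without W/W vehicle replicate 4 (0.57, adjusted p = 0.183) and without W/F vehicle replicate 4 (adjusted p = 0.0951). It also missed the threshold with a pseudocount of 0.1 (adjusted p = 0.0645), with no filter (0.0523) and with only the compared libraries (0.0587).

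**Figure D2:**
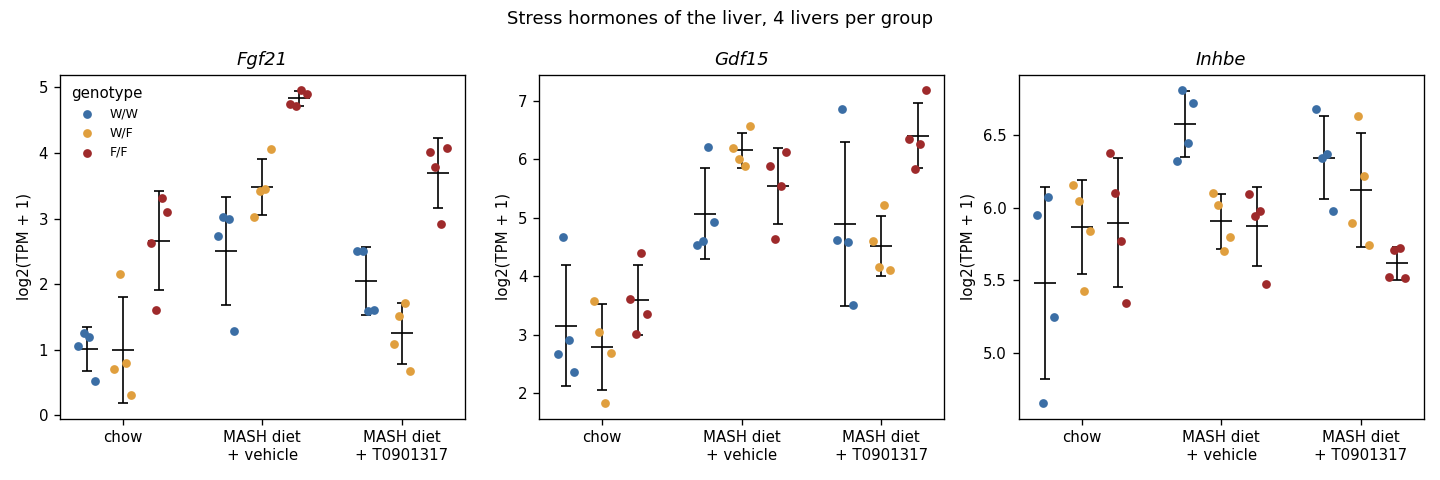
Fgf21, Gdf15 and Inhbe as log2(TPM + 1) in each liver (points) with the mean and SD of the 4 livers per group (black bars); colours mark the genotypes. Fgf21 is highest in F/F livers on vehicle (27.5 TPM), the mean of Gdf15 is higher on vehicle than on chow in all 3 genotypes, and Inhbe on vehicle is highest in W/W (95.4 TPM).

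Gdf15 (8:70629393-70632456, minus strand), a TGF-beta family hormone that acts on the brainstem receptor Gfral, rose with the diet in all 3 genotypes. On chow it was at 5.36, 24.4, 6.50 and 4.145 TPM in W/W, at 10.9, 7.26, 2.57 and 5.48 TPM in W/F and at 11.2, 7.07, 20.2 and 9.19 TPM in F/F. On vehicle it was at 22.3, 23.2, 72.8 and 29.3 TPM in W/W, at 72.0, 62.8, 57.7 and 93.4 TPM in W/F and at 58.0, 23.8, 45.4 and 68.8 TPM in F/F. One W/W liver on chow reached the level of the lowest W/W livers on vehicle, whereas chow and vehicle did not overlap in W/F or F/F. The diet difference was 1.91 in W/W (SE 0.53, adjusted p = 0.0148), 3.37 in W/F (2.39e-06) and 1.95 in F/F (0.00243), all called after rescaling too. The W/W call was lost without W/W vehicle replicate 3 (adjusted p = 0.0748) or W/W chow replicate 4 (adjusted p = 0.0566).

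With T0901317 Gdf15 was at 23.5, 115, 23.1 and 10.4 TPM in W/W, at 23.4, 16.8, 36.01 and 16.1 TPM in W/F and at 80.2, 56.1, 75.6 and 144 TPM in F/F. All 4 W/F livers were below all 4 W/F livers on vehicle, a difference of -1.64 (SE 0.53, adjusted p = 0.0076) that missed the threshold after rescaling (-1.05, adjusted p = 0.108). In F/F the difference was 0.86 (adjusted p = 0.203) and in W/W it was -0.17 (adjusted p = 0.911). F/F exceeded W/W on T0901317 by 1.51 (adjusted p = 0.0142), which missed the threshold after rescaling (1.00, adjusted p = 0.133), without W/W T0901317 replicate 4 (1.05, adjusted p = 0.0919), without F/F T0901317 replicate 4 (adjusted p = 0.0568) and with only the compared libraries (0.0682).

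Inhbe (10:127348857-127354411, minus strand), the liver-enriched subunit of activin E, rose with the diet in W/W, and the responses of W/F and F/F differed from that. On chow it was at 60.9, 24.1, 66.5 and 36.9 TPM in W/W, and on vehicle at 79.1, 111, 86.4 and 105 TPM, without overlap. On vehicle it was at 67.8, 63.9, 51.0 and 54.6 TPM in W/F and at 67.3, 60.4, 62.0 and 43.4 TPM in F/F, all below the lowest W/W liver. It rose with the diet in W/W by 1.10 (SE 0.24, adjusted p = 0.00275), while the difference was 0.04 in W/F (adjusted p = 0.9) and -0.03 in F/F (adjusted p = 0.935). Minus the diet response of W/W, that of W/F was -1.06 (SE 0.34, adjusted p = 0.0102; rescaled -1.68) and that of F/F -1.12 (adjusted p = 0.00866; rescaled -1.60). On vehicle both mutant genotypes were below W/W, with a difference of -0.67 for W/F (adjusted p = 0.0151) and -0.71 for F/F (adjusted p = 0.00942), and F/F was lower on T0901317 too (-0.73, adjusted p = 0.00994), at 44.9, 51.3, 51.8 and 44.7 TPM against 102, 80.3, 82.0 and 62.1 TPM. With only the compared libraries in the fit, the diet calls in W/W for Fgf21, Gdf15 and Inhbe missed the threshold (adjusted p = 0.0792, 0.104 and 0.0913). Of the 50-base stretches of Inhbe, 0.38% occur in other genes.

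Of 19 tested genes of the ATF4 stress response, most were higher in F/F than in W/W livers on the MASH diet. In F/F against W/W on vehicle 17 were higher and 2 lower, with a median of 1.61 against 0.70 over all genes, of which 69.3% were called higher and 7.13% lower. After rescaling 12 were higher and 2 lower, where 31.0% and 28.1% of all genes were called. The 3 largest were Atf3, a stress-induced repressor (4.81, SE 0.37, adjusted p = 1.63e-12), at 65.9 ± 8.56 TPM in F/F and 1.54 ± 1.04 TPM in W/W; Nupr1, a stress-induced nuclear protein (3.16, adjusted p = 5.01e-10); and Asns, asparagine synthetase (2.83, adjusted p = 1.09e-05). On chow 11 were higher in F/F and none lower in TPM, where 43.0% and 3.65% of all genes were called. After rescaling 7 were higher and 2 lower, beside 15.9% and 14.0% of all genes. The largest was Asns (2.85, adjusted p = 5.82e-05), at 50.7 ± 12.0 TPM against 10.6 ± 13.6 TPM in W/W.

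With T0901317 in W/F 11 of these 19 fell and 2 rose, where 59.3% of all genes were called lower and 6.59% higher. The share of falls was near that of all genes, with a median of -0.89 against -0.49. After rescaling 9 fell and 3 rose, beside 27.1% and 23.6% of all genes. In F/F 10 fell and 0 rose, beside 31.2% and 3.95%. After rescaling 6 fell and 0 rose there, beside 7.98% and 8.33%. In W/F Atf3 fell by 4.27 (adjusted p = 1.47e-10), Nupr1 by 2.21 (adjusted p = 8.41e-07) and Mthfd2, a mitochondrial folate enzyme, by 1.58 (adjusted p = 4.06e-06). All 3 calls stood after rescaling. With the diet 13 rose and 1 fell in W/F, where 52.4% of all genes were called higher. In F/F 13 rose and 2 fell, where 46.5% were. After rescaling the counts were 9 up and 1 down, and 9 up and 2 down (27.9% and 25.7% of all genes higher). In W/W limma called none with the diet at the adjusted threshold, where 2.59% of all genes were called higher and 10.3% lower. At an unadjusted p under 0.05 there were 5, for which no share of all genes is given here. Fgf21, Gdf15 and Inhbe passed the adjusted threshold in that comparison. After rescaling 1 of the 19 was up and 1 down in W/W, beside 6.98% and 8.44% of all genes.

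Of 12 tested receptors, regulators and relatives of FGF21, 8 were higher and 3 lower in F/F against W/W on vehicle. The median was 0.75 against 0.70 over all genes. The share of higher calls was near the 69.3% of all genes, of which 7.13% were called lower. After rescaling 5 were higher and 5 lower (median -0.07), beside 31.0% and 28.1%. In TPM Nr4a1, an orphan nuclear receptor, was higher by 2.95 (adjusted p = 4.01e-07) and Fgfr1, the FGF21 receptor, by 2.11 (7.22e-10). Fgf1 was lower by 1.98 (-1.98, adjusted p = 1.12e-13). In W/W livers T0901317 lowered Fgfr4, the receptor for FGF15, from 27.2 ± 4.30 to 16.5 ± 0.595 TPM (-0.67, adjusted p = 0.000208). Of 16 genes of the activin and TGF-beta axis, 10 were higher and 2 lower in F/F against W/W on vehicle (median 1.06). Of all genes 69.3% and 7.13% were called. After rescaling 8 were higher and 5 lower (median 0.26), beside 31.0% and 28.1% of all genes. Those higher in TPM included Fst, the activin-binding protein follistatin (2.67, adjusted p = 6.89e-08), Bambi (1.53) and Smad3 (1.38). In W/W with T0901317 2 of these 16 fell, where 2.91% of all genes were called lower: Inhbc, the activin C subunit gene, from 93.6 ± 18.9 to 38.6 ± 2.20 TPM (-1.23, SE 0.18, adjusted p = 8.82e-06), and the activin receptor gene Acvr2a (-0.38, adjusted p = 0.00581).

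Ahsg and Fetub lie side by side on the plus strand of chromosome 16 (16:22891277-22899449 and 16:22918334-22939778). Both fell with T0901317 in W/W livers, and in W/F livers Fetub rose while Ahsg fell in TPM. Ahsg, among the most abundant plasma protein transcripts, was at 8198, 8869, 9673 and 9213 TPM in W/W livers on vehicle and at 5228, 4652, 5669 and 5440 TPM with T0901317. Fetub was at 597, 516, 524 and 560 TPM and at 387, 384, 408 and 389 TPM. Neither overlapped between the treatments. Ahsg fell by 0.78 (SE 0.11, adjusted p = 1.08e-05; rescaled -0.85) and Fetub by 0.49 (SE 0.10, adjusted p = 0.00067; rescaled -0.55).

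In W/F livers Fetub was at 516, 488, 497 and 426 TPM on vehicle and at 642, 650, 713 and 734 TPM with T0901317, higher in every treated liver by 0.51 (adjusted p = 2.94e-05; rescaled 1.12). In F/F it was at 562, 403, 416 and 500 TPM and at 588, 583, 591 and 516 TPM, and it rose by 0.29 with overlap (adjusted p = 0.0209; rescaled 0.56, adjusted p = 0.00259). Without F/F vehicle replicate 2 (adjusted p = 0.0988) or replicate 3 (0.0807), without F/F T0901317 replicate 3 (0.0659), and with only the compared libraries (0.087), this F/F rise missed the threshold. Minus the response of W/W, that of Fetub was 0.99 for W/F (SE 0.13, adjusted p = 4.93e-07) and 0.77 for F/F (adjusted p = 0.000126), and rescaling gave 1.67 and 1.11.

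In W/F livers Ahsg was at 13719, 14129, 12933 and 12130 TPM on vehicle and at 8267, 9871, 10845 and 10848 TPM with T0901317. The F/F livers held 17924, 14544, 14606 and 17865 TPM on vehicle and 11406, 12854, 11805 and 10506 TPM with T0901317, and neither genotype showed overlap between the treatments. The TPM differences of -0.42 (W/F, adjusted p = 0.00191) and -0.48 (F/F, adjusted p = 0.00229) became 0.19 and -0.21 after rescaling, and neither was then called. On T0901317 the W/F livers exceeded W/W in Ahsg by 0.92 (adjusted p = 6.33e-07) and the F/F livers by 1.15 (1.51e-09), and both calls stood after rescaling (0.93 and 0.62). The higher Ahsg in mutants on vehicle (0.56 in W/F, 0.85 in F/F) turned to -0.11 and -0.02 after rescaling, so its direction there depends on the scaling. Minus the response of W/W, the response of Ahsg to T0901317 was 0.36 for W/F (adjusted p = 0.0528; rescaled 1.04, adjusted p = 5.49e-05) and 0.30 for F/F (adjusted p = 0.151; rescaled 0.64, adjusted p = 0.0183). The W/F difference of 0.36 passed with genes of at least 5 TPM only (adjusted p = 0.0415) and with only the compared libraries (0.0413). Its diet response in W/F differed from that in W/W by 0.46 (adjusted p = 0.0156), which missed the threshold with no filter (0.0865) and was -0.17 after rescaling.

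**Figure D3:**
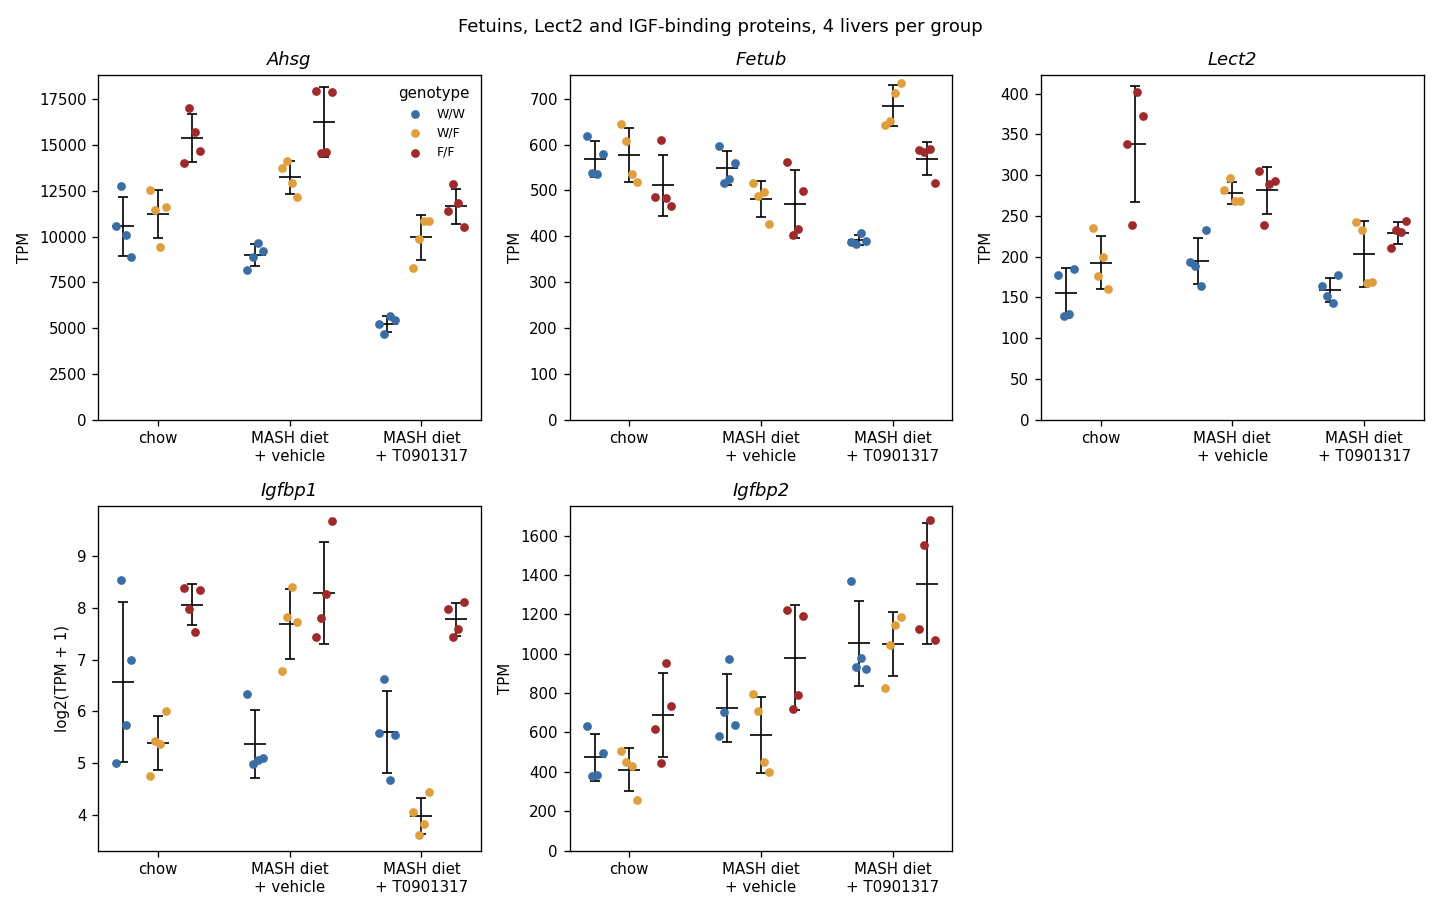
Ahsg, Fetub, Lect2 and Igfbp2 as TPM and Igfbp1 as log2(TPM + 1) in each liver (points), with the mean and SD of the 4 livers per group (black bars); colours mark the genotypes. Among the livers given T0901317 the 4 W/W livers hold the lowest Ahsg (4652 to 5669 TPM) and Fetub (384 to 408 TPM), and the 4 W/F livers the lowest Igfbp1 (11.3 to 20.7 TPM).

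Outside the T0901317 groups the group means of Fetub were 470 to 576 TPM. After rescaling Fetub was called lower in W/F than in W/W on vehicle (-0.86, adjusted p = 1.33e-06), in F/F than in W/W on chow (-0.54, adjusted p = 0.00146) and with the diet in F/F (-0.48, adjusted p = 0.0027), none of which was called in TPM. In TPM it was lower than in W/W by 0.24 in F/F on vehicle (-0.24, adjusted p = 0.0262), a call lost without W/W vehicle replicate 1 or 4 or F/F vehicle replicate 2 or 3 (adjusted p up to 0.13) and with only the compared libraries (0.0919), though after rescaling it was -1.10 (adjusted p = 9.54e-09). On T0901317 the W/F livers exceeded W/W by 0.80 (adjusted p = 3.2e-07; rescaled 0.82) and the F/F livers by 0.54 (1.84e-05), the last of which was 0.01 after rescaling (adjusted p = 0.966). With the diet it fell by 0.26 in W/F (adjusted p = 0.0206; rescaled -0.76), a call lost without W/F chow replicate 1 or 2 or W/F vehicle replicate 4 (adjusted p up to 0.0884). Of 5 tested relatives, 3 were higher and 2 lower in F/F against W/W on vehicle, beside 69.3% and 7.13% of all genes. After rescaling 2 were higher and 3 lower, beside 31.0% and 28.1%. In TPM Cstb, cystatin B, was higher by 3.63 (adjusted p = 2.61e-15) and Cst3, cystatin C, by 1.26. Hrg, histidine-rich glycoprotein, was lower by 1.09 (-1.09, adjusted p = 2.57e-10).

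Igfbp1 (11:7197782-7202546, plus strand), whose transcript insulin lowers and fasting raises, rose with the diet and fell with T0901317 in W/F mice. It was at 25.9, 42.2, 40.2 and 63.7 TPM in W/F livers on chow, at 109, 227, 337 and 211 TPM on vehicle and at 15.7, 11.3, 13.3 and 20.7 TPM with T0901317. The 3 W/F groups did not overlap. Igfbp1 rose there with the diet by 2.29 (SE 0.52, adjusted p = 0.000363), and the rescaled value was 1.80 (adjusted p = 0.00526). With T0901317 it fell by 3.69 (SE 0.52, adjusted p = 4.83e-07), and the rescaled value was -3.10 (adjusted p = 1.56e-05).

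In W/W livers Igfbp1 was at 31.1, 372, 52.6 and 127 TPM on chow, at 80.2, 30.7, 32.6 and 33.2 TPM on vehicle and at 47.0, 97.8, 24.8 and 45.7 TPM with T0901317, and in F/F at 334, 251, 184 and 323, at 171, 223, 306 and 814, and at 251, 172, 192 and 277 TPM. One W/W liver on chow and 1 F/F liver on vehicle were far above the rest of their groups. The T0901317 difference was 0.24 in W/W (adjusted p = 0.863) and -0.51 in F/F (adjusted p = 0.459). The response in W/F differed from that in W/W by -3.93 to T0901317 (SE 0.74, adjusted p = 4.8e-05; rescaled -3.27) and by 3.49 to the diet (adjusted p = 0.000244; rescaled 2.87).

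Igfbp1 on vehicle exceeded W/W by 2.31 in W/F livers (adjusted p = 0.000273) and 2.92 in F/F livers (9.56e-06), and on T0901317 by 2.17 in F/F livers (0.000674), and all 3 calls stood after rescaling (1.65, 2.06 and 1.65). On T0901317 it was lower in W/F than in W/W by 1.62 (-1.62, adjusted p = 0.0445), which missed the threshold with no filter (0.0932) and when any 1 of the 8 libraries other than W/W T0901317 replicate 3 was left out (adjusted p = 0.051 to 0.16). On chow F/F was higher by 1.49 (adjusted p = 0.0207), which missed it after rescaling (1.10, adjusted p = 0.122) and without W/W chow replicate 1 (0.96, adjusted p = 0.135) or 3 (0.0784), or F/F chow replicate 1 (0.0514) or 4 (0.056), or with only the compared libraries (0.12).

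Igfbp2 (1:72824503-72852474, plus strand), which binds IGF1 and IGF2, was highest with T0901317 in each genotype, at means of 1052 ± 215 TPM (W/W), 1050 ± 161 TPM (W/F) and 1357 ± 306 TPM (F/F; SD, n = 4), against 724 ± 174, 588 ± 194 and 981 ± 265 TPM on vehicle. In W/F it was at 825, 1044, 1146 and 1185 TPM with T0901317 and at 795, 709, 448 and 400 TPM on vehicle, without overlap. The rise there was 0.88 (SE 0.25, adjusted p = 0.00294; rescaled 1.49). The difference was 0.55 in W/W (adjusted p = 0.184) and 0.48 in F/F (adjusted p = 0.134), with overlap in both, and the F/F one passed the threshold after rescaling (0.75, adjusted p = 0.0339). Only after rescaling was Igfbp2 also called lower in W/F than in W/W on vehicle and higher with the diet in W/W. The same held for its response to T0901317 in W/F minus that in W/W, which was called higher.

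Of 14 tested genes of the IGF axis, 1 rose and 4 fell with T0901317 in W/W, where 7.87% and 2.91% of all genes were called. Igfbp3, the main carrier, rose (0.82, adjusted p = 0.00527; 0.0533 with only the compared libraries), Igfbp4 fell (-0.63, adjusted p = 8.45e-05), and Igfals, which completes the circulating complex, fell from 122 ± 17.2 to 67.3 ± 12.6 TPM (-0.85, adjusted p = 0.00142). In W/F Igfals rose from 51.5 ± 15.6 to 136 ± 7.37 TPM (1.43, adjusted p = 6.93e-08). In F/F against W/W on vehicle 7 were higher and 3 lower, beside 69.3% and 7.13% of all genes, with a median of 0.27 against 0.70. After rescaling 3 were higher and 8 lower, beside 31.0% and 28.1%. Ghr, the growth hormone receptor, was at 38.0 ± 2.32 TPM in F/F and 121 ± 10.6 TPM in W/W (-1.64, adjusted p = 1.24e-11), whereas Igfbp7 (2.98) and Igf2r (1.4997) were higher.

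Lect2 (13:56542464-56548502, minus strand) was at 178, 127, 130 and 185 TPM in W/W livers on chow, at 235, 176, 199 and 160 TPM in W/F and at 338, 239, 402 and 373 TPM in F/F. Every F/F liver was above every W/F and W/W liver. F/F exceeded W/W by 1.11 (SE 0.15, adjusted p = 8.91e-07; rescaled 0.73, adjusted p = 0.000671), the only genotype difference of Lect2 that kept its call in both scalings among the 6 tested. On vehicle the means were 195 ± 28.6, 278 ± 13.5 and 281 ± 28.8 TPM in W/W, W/F and F/F, and the differences of 0.52 in W/F (adjusted p = 0.00274) and 0.53 in F/F (adjusted p = 0.0019) turned to -0.14 and -0.33 after rescaling. On T0901317 F/F was higher than W/W by 0.52 (adjusted p = 0.00321), a value at 0 after rescaling (-0.0025, adjusted p = 0.995).

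Lect2 rose with the diet in W/F by 0.54 (adjusted p = 0.00237), and the rescaled value was 0.04 (adjusted p = 0.852). With T0901317 it fell by 0.47 there (adjusted p = 0.00648), and the rescaled value was 0.13 (adjusted p = 0.51). In F/F the diet difference was -0.24 (adjusted p = 0.172; rescaled -0.59, adjusted p = 0.00262), or -0.40 (adjusted p = 0.0226) without F/F chow replicate 2, and it differed from that in W/W by -0.58 (adjusted p = 0.0257; rescaled -1.06, adjusted p = 0.000658). Without W/W chow replicate 2 or 3, W/W vehicle replicate 4, F/F chow replicate 3 or 4, or F/F vehicle replicate 2, this difference of responses missed the threshold (adjusted p = 0.051 to 0.0648), as it did with only the compared libraries (0.0587).

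Hamp (7:30942368-30944032, minus strand) was called in none of the 16 comparisons of the TPM values, while its paralog Hamp2 was called in several. In W/W livers Hamp was at 2204, 1894, 2688 and 2973 TPM on chow, at 1132, 1647, 1426 and 1795 TPM on vehicle and at 408, 637, 656 and 1269 TPM with T0901317. The treated and vehicle livers overlapped through 1 liver, and the difference was -1.11 (SE 0.43, adjusted p = 0.0949), or -1.41 (adjusted p = 0.0432) without that liver, W/W T0901317 replicate 4. In W/F and F/F the group means lay between 1322 and 1749 TPM, with SDs of 304 to 939. After rescaling F/F was lower than W/W on vehicle by 1.08 (-1.08, adjusted p = 0.0365), against -0.21 in TPM.

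Hamp2 (7:30922372-30924681, minus strand), which lies beside Hamp and shares 16.62% of the 50-base stretches of the Hamp transcript, was at 36.8, 33.6, 49.1 and 28.8 TPM in W/W livers on vehicle and at 268, 242, 315 and 384 TPM with T0901317. It rose 8.16-fold in the mean, by 3.00 on the log2 scale (SE 0.61, adjusted p = 0.00102; rescaled 2.94). With T0901317 it was at 48.0, 25.8, 5.36 and 13.4 TPM in W/F and at 9.80, 6.28, 36.02 and 13.3 TPM in F/F, all below the lowest W/W liver. Against W/W on T0901317 the difference was -4.004 for W/F (adjusted p = 2.47e-05) and -4.39 for F/F (adjusted p = 5.3e-07).

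**Figure D4:**
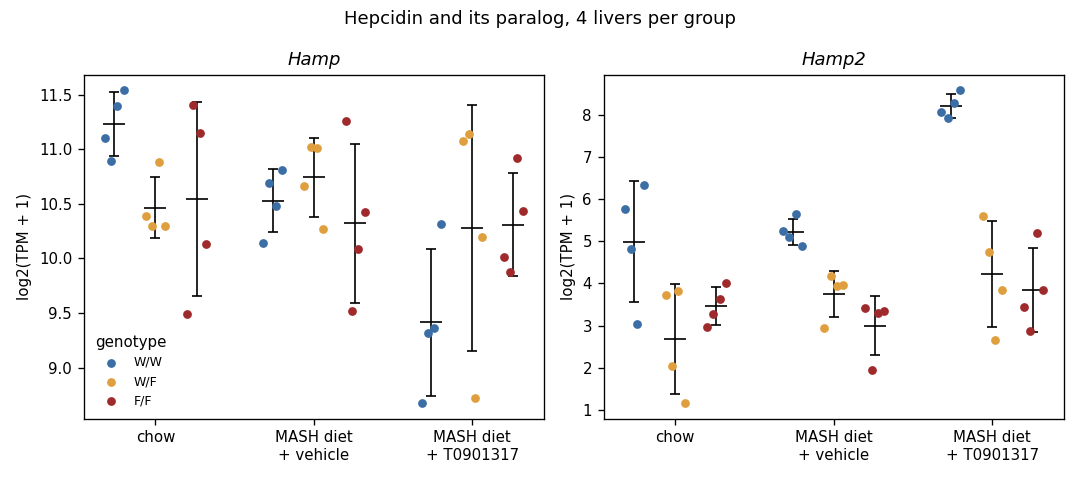
Hamp (hepcidin) and Hamp2 as log2(TPM + 1) in each liver (points), with the mean and SD of the 4 livers per group (black bars); colours mark the genotypes. With T0901317 the W/W livers have the lowest mean Hamp (743 TPM) and the highest Hamp2 (303 TPM), while Hamp2 in W/F and F/F stays at means of 23.1 and 16.4 TPM.

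Hamp2 made up 23.2% to 39.7% of the summed TPM of both genes in W/W livers with T0901317, and at most 3.33% in every other liver. In F/F it was lower than in W/W on vehicle by 2.22 (-2.22, adjusted p = 0.00161; rescaled -2.998). The W/F livers on vehicle differed from W/W by -1.46, a call lost with no filter (adjusted p = 0.0681). It was also lost without W/W vehicle replicate 1 (0.0587) or 3 (0.0818). The response to T0901317 in W/F differed from that in W/W by -2.54 (adjusted p = 0.0129), which missed the threshold after rescaling (-1.91, adjusted p = 0.0846). The mean of Hamp2 with T0901317 was 1.75 times that on vehicle in W/F and 2.15 times in F/F, with overlap in both. How reads in the shared stretches were counted is not given here, so the levels of both genes are uncertain to that extent. The promoters printed above differ at the BMP element, whose use was not measured.

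Among 26 tested genes of the hepcidin and iron axis, 2 rose and 3 fell with T0901317 in W/W (median -0.05 against 0.06 over all genes), beside 7.87% and 2.91% of all genes. Hamp2 itself is counted in this list, as 1 of the 2 that rose. Il6ra, the receptor through which interleukin-6 acts on STAT3, fell from 13.4 ± 1.07 to 5.42 ± 1.45 TPM (-1.19, SE 0.24, adjusted p = 0.000974). In W/F 1 rose and 19 fell (median -0.69 against -0.49), beside 6.59% and 59.3% of all genes. After rescaling 5 rose and 8 fell, beside 23.6% and 27.1%. Cp, the ferroxidase ceruloplasmin, fell there from 876 ± 181 to 223 ± 76.1 TPM (-2.004, adjusted p = 7.24e-10), Id1, a BMP target, by 1.64 (adjusted p = 0.00054) and Trf, transferrin, by 1.58 (adjusted p = 8.86e-11). In F/F against W/W on vehicle 19 were higher and 2 lower (8 and 6 after rescaling). The shares of higher calls were near those of all genes (69.3% and 31.0%), of which 7.13% and 28.1% were called lower. Id1 (1.88) and Cp (1.85) were among the higher in TPM, while Hamp2 was 1 of the 2 lower.

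Of 20 other secreted signalling proteins of the liver, 4 rose and 2 fell with T0901317 in W/W, where 7.87% and 2.91% of all genes were called. Pltp, a phospholipid transfer protein and known LXR target, rose from 28.4 ± 12.1 to 277 ± 59.1 TPM (3.32, adjusted p = 1.39e-07) and Gas6, a ligand of the TAM receptors, by 1.08 (adjusted p = 9.71e-05). In F/F against W/W on vehicle 7 were higher and 7 lower, beside 69.3% and 7.13% of all genes, with Orm2 (4.79) and Gas6 (3.14) among the higher. After rescaling 3 were higher and 13 lower, beside 31.0% and 28.1% of all genes, with a median of -0.66.

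The calls among the members were set beside the share of all genes called in the same comparison and direction, with Enho left out except within F/F. With T0901317 in W/W, 0 of 9 members were higher and 2 lower (Ahsg and Fetub), where 7.87% and 2.91% of all genes were called, and the same 2 after rescaling (8.0% and 5.52%). In W/F 2 were higher (Fetub and Igfbp2) and 5 lower, beside 6.59% and 59.3%, and 3 higher (Inhbe added) and 2 lower (Fgf21 and Igfbp1) after rescaling, beside 23.6% and 27.1%. In F/F 1 of 10 was higher and 3 lower, beside 3.95% and 31.2%, and 2 and 0 after rescaling, beside 8.33% and 7.98%. The members' median differences were -0.28 (W/W), -0.46 (W/F) and -0.27 (F/F), against 0.06, -0.49 and -0.24 over all genes, and -0.35, 0.15 and -0.01 after rescaling.

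For the MASH diet with vehicle against chow, 3 of 9 members were higher and 0 lower in W/W, beside 2.59% and 10.3% of all genes, and 5 and 0 after rescaling (Igfbp2 and Lect2 added), beside 6.98% and 8.44%. In W/F 4 were higher and 1 lower, beside 52.4% and 8.53%, and 3 and 1 after rescaling, beside 27.9% and 27.0%. In F/F 2 of 10 were higher and 1 lower, beside 46.5% and 9.27%, and 2 and 3 after rescaling, beside 25.7% and 21.3%. Their medians were 0.34 for W/W, 0.50 for W/F and 0.02 for F/F, against -0.05, 0.39 and 0.32 over all genes, and 0.47, -0.01 and -0.32 after rescaling.

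Between W/F and W/W livers on chow limma called 0 of 9 members, with 2 (Igfbp1 and Lect2) at an unadjusted p under 0.05, where 0.198% of all genes were called higher and 0.288% lower (0.192% and 0.409% after rescaling, again with 0 members). On vehicle 4 were higher and 1 lower, beside 61.6% and 6.83%, and 1 and 3 after rescaling, beside 27.6% and 25.5%. On T0901317 2 were higher and 1 lower, the same in both scalings, beside 3.65% and 6.23% (5.08% and 8.28% after rescaling).

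Between F/F and W/W livers on chow 4 of 9 were higher and 0 lower, beside 43.0% and 3.65%, and 2 and 1 after rescaling, beside 15.9% and 14.0%. On vehicle 4 were higher and 2 lower, beside 69.3% and 7.13%, and 2 and 3 after rescaling, beside 31.0% and 28.1%. On T0901317 6 were higher and 1 lower, beside 56.3% and 6.96%, and 3 and 1 after rescaling, beside 24.2% and 22.7%. The genotype comparisons share the W/W livers of each treatment and are not independent of one another.

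Differences between responses passed for 3 of 9 members in W/F against W/W to T0901317 (58.5% of all genes in either direction) and 5 after rescaling (44.0%), and in F/F for 1 (30.4%) and 2 (17.4%). For the diet they passed for 3 in W/F (54.6%) and 3 after rescaling (40.1%), and for 2 in F/F (46.0%) and 3 after rescaling (26.8%). Where the background is high, as for the higher calls of F/F against W/W on vehicle and T0901317, a member's call in TPM alone says little. Where it was under 10% in TPM, single members such as Ahsg and Fetub (T0901317 in W/W), Fetub and Igfbp2 (T0901317 in W/F) and Fgf21, Gdf15 and Inhbe (diet in W/W) were called. After rescaling the background of higher calls with T0901317 in W/F was 23.6%. The diet in W/W gave 0 members called with only the compared libraries.

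**Figure D5:**
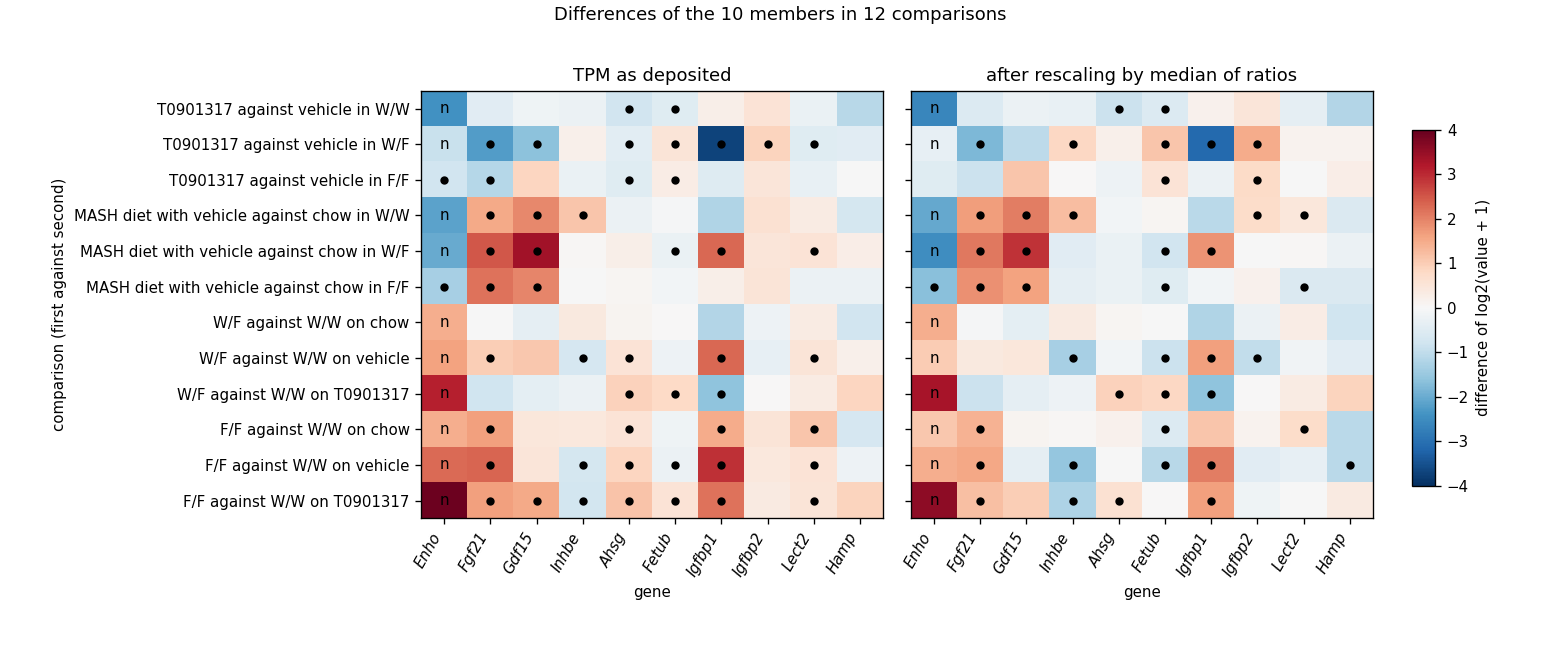
Differences of log2(value + 1) for the 10 members (columns) in 12 pairwise comparisons (rows), from TPM as deposited (left) and after rescaling (right); red is higher in the first group named, blue lower, a dot marks an adjusted p under 0.05 and n marks Enho where it was not tested. Fgf21 and Igfbp1 keep their calls in F/F against W/W on vehicle and T0901317 in both panels, while Ahsg and Lect2 on vehicle do so only on the left.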

How the data were processed

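PolyA RNA of 36 mouse livers was sequenced. The authors deposited TPM per gene, and per the submitters' processing notes the tools were Trimmomatic 0.36, STAR 2.5.2b and featureCounts of Subread 1.5.2 with GRCm38 (mm10); the annotation release is not given in the sources used here. TPM sets each library to 1000000, so a rise of some genes lowers the others. Values were fitted with limma 3.58.1 in R 4.3.3 (mean-variance trend) as log2(TPM + 1), which understates changes of low genes, keeping the 16638 genes that reached 1 TPM in 4 or more livers. The fit had 9 group means and 16 contrasts, with Benjamini-Hochberg adjustment per contrast and a threshold of 0.05. Counts at an unadjusted p under 0.05 are given without a share of all genes at that level. Alternatives were median-of-ratios rescaling (14786 genes), a pseudocount of 0.1, a minimum of 5 TPM, no filter, only the compared libraries, the replicate block and each library left out. Whole reads were estimated from the steps of low TPM values with gene lengths of the reference annotation, and 93.7% to 95.7% of low values came out whole within 0.1 (20% by chance). No count test was run, because only TPM values were deposited. Scripts were tested on simulated data. Members and gene lists were chosen with earlier results of these data known. Named list genes were at most 3 per list and contrast, the largest called differences among those whose higher group averaged 5 TPM or more. The genes like Enho were the 5 with the highest and the 3 with the lowest r. Gene positions are from the GRCm38 annotation, and promoter windows from RefSeq (GRCm38.p6). A few genes that this rule or the marker lists would name are not reported here.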

Additional observations from a re-analysis of the deposited data

Results flagged for a closer look

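In 9 of 90 groups of 4 livers, 1 liver lay further from the rest than Dixon's 95% critical value allows, and chance gives about 1 in 20. The high livers were W/W replicate 2 on chow (24.4 TPM), W/W replicate 3 on vehicle (72.8 TPM) and W/W replicate 2 on T0901317 (115 TPM) for Gdf15, W/F replicate 2 on chow for Fgf21 (3.47 TPM), F/F replicate 2 on chow for Fetub (610 TPM), W/W replicate 1 on vehicle for Igfbp1 (80.2 TPM), W/W replicate 1 on T0901317 for Igfbp2 (1372 TPM) and W/F replicate 3 on chow for Hamp (1887 TPM). F/F replicate 4 on T0901317 was low for Fetub (516 TPM).

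Responses that differed between genotypes by limma's test of the difference were also noted. To T0901317 the response in W/F minus that in W/W was -1.78 for Fgf21, 0.99 for Fetub and -3.93 for Igfbp1, and the response in F/F minus that in W/W was 0.77 for Fetub. To the diet the response in W/F minus that in W/W was -1.06 for Inhbe, 0.46 for Ahsg and 3.49 for Igfbp1, and that in F/F minus that in W/W was -1.12 for Inhbe and -0.58 for Lect2. Those of Fetub, Igfbp1, Inhbe and Lect2 were called after rescaling too, and those of Fgf21 and Ahsg were not.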

How the results depend on the processing

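Rescaling changed the number of members called to 2 for T0901317 in F/F (4 in TPM), 5 for the diet in W/W (3), 5 for the diet in F/F (3), 4 between F/F and W/W on T0901317 (7), and 5 and 2 for the T0901317 responses of W/F and F/F minus that of W/W (3 and 1). It turned the sign of Ahsg for T0901317 in W/F (0.19), between each mutant genotype and W/W on vehicle (W/F -0.11, F/F -0.0196) and for the diet response of W/F minus W/W (-0.17), and of Lect2 for T0901317 in W/F (0.13), likewise on vehicle (W/F -0.14, F/F -0.33) and between F/F and W/W on T0901317 (-0.0025); the cause was not tested. A pseudocount of 0.1 gave 2 for T0901317 in F/F. With only the compared libraries, which are fewer, the diet in W/W gave 0 (6 at an unadjusted p under 0.05 in the fit of all libraries, 5 after rescaling) and the diet response of F/F minus W/W gave 1. Leaving out 1 library gave 2 to 4 for T0901317 in F/F and 1 to 2 for the diet response of F/F minus W/W. The other counts stayed within 1.5 times. Alternatives for Hamp2 and the list genes were added after the data were seen. Same-numbered livers share only a number: no comparison had all 4 correlations above 0.1 (-0.174 to 0.297), and the replicate block left all 16 counts within that limit (4 for T0901317 in F/F; Fgf21 there -1.14, adjusted p = 0.0256). The estimated depth of 18.07 to 35.82 M reads (M, 1000000) leaves Enho in W/W livers with T0901317 at 0 to 9 reads.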
